A study of Mus musculus with 244 samples.

Results

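Genes of the lysosome were followed in single macrophages of mouse atherosclerotic plaques. They were the rows of the table whose symbol was on a list of 28 lysosomal genes or began with Atp6v or Atp6ap, 54 of 24475 genes in all. They comprised 18 enzymes and other proteins of the lysosomal lumen, 7 membrane proteins, 26 subunits and accessory proteins of the proton pump, and the 3 transcription factors Tfeb, Tfe3 and Mitf. The macrophages were sorted from digested aortic arches as cells positive for CD45, CD11b and F4/80. Baseline cells came from Apoe-/- mice that had eaten a high-fat diet for 16 weeks. Regression cells came from arches of such Apoe-/- donors that were placed in wild-type recipients fed chow and collected 3 days after surgery. Host Apoe genotype, diet and surgery therefore changed together and cannot be told apart, and an arch taken after transplantation can hold cells of the donor and of the host. Ages, sexes and the number of mice were not found in the sources used here.

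Lysosomes break down lipids, glycans and proteins that a macrophage takes up, among them the lipoproteins of a plaque. Their hydrolases work in an acid lumen, which is kept acid by the V-ATPase, a rotary proton pump with a soluble V1 sector that hydrolyses ATP and a V0 sector in the membrane that carries protons. Heavily glycosylated membrane proteins line the lumen. Transcription factors of the MiT/TFE family, TFEB, TFE3 and MITF, bind E-box sites with the core CACGTG in many lysosomal genes.

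The data were RPKM values, which scale reads by library size and by the length of the transcript, in 244 libraries of 1 cell each. After 3 pairs of near-identical baseline libraries were averaged and 3 regression cells with fewer than 1000 genes dropped, there were 125 cells from baseline and 113 from regression, with medians of 2491 and 2360 genes at an RPKM of 1 or more. Such a gene is called listed, or detected, in that cell. The labels name no animal, so each condition was 1 sample: differences are descriptions over cells with no test, SDs are over cells, and 95% intervals of shares are exact binomial (Clopper-Pearson) and cover counting error only. Apoe, intact in the host and disrupted in the donor, was found in 9 of 125 cells at baseline (7.20%) and in 112 of 113 in regression (99.1%). At least 3 of 8 macrophage markers were detected in 98.4% and 98.2% of cells. At least 3 of 6 classical monocyte markers were detected in 16.8% of cells at baseline and 27.4% in regression, and 4 of the 6 had a higher mean in regression. At least 3 of 6 nonclassical monocyte markers were detected in 18.4% and 2.65%, and all 6 had a lower mean in regression. The summed level of the classical list, as log2(summed RPKM + 1), ran from 0 to 12.74 at baseline and from 0 to 13.91 in regression, that of the nonclassical list from 0 to 11.26 and from 0 to 8.88, and no marker of either was at 0 in all cells. Their part in the results was not tested beyond leaving those cells out.

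Sample numbers ran in 5 stretches of 1 condition. Regression held numbers 1 to 20, 93 to 111 and 168 to 244, and baseline held 21 to 92 and 112 to 167. No source says whether a stretch was a separate mouse, day or capture. A second division was visible in the values themselves. Values above 0 but under 0.0001 numbered 18 to 60 per library in libraries 1 to 133 and 1 to 33 in libraries 134 to 244, with 53 in library 133 and 8 in library 134. The break fell inside a baseline stretch, so both conditions lay on both sides of it, with 91 baseline and 38 regression cells in libraries 1 to 133 and 34 and 75 in libraries 134 to 244. Baseline cells listed a median of 2370 genes on the first side and 3024.5 on the second, and regression cells 2314 and 2399. No source says what set the sides apart, and this division was drawn after the values were seen. Each main result is therefore given over all cells and within each side.

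Of the 54 genes, 43 passed the filter, which asked that a gene be listed in at least 10% of cells as the mean of both conditions, and 11 did not. A difference is the mean log2(RPKM + 1) of regression cells minus that of baseline cells, a scale that understates the difference of low genes. Of the 43, 2 were higher in regression by 1 or more, against 3.35% of all 6739 genes that passed: Smpdl3a, a phosphodiesterase related to acid sphingomyelinase, and Lamp1, a major glycoprotein of the lysosomal membrane. Another 5 were lower by 1 or more, against 4.38% of all genes: Ppt1, Man2b1, Cd68, Atp6v0c and Atp6v1f. The other 36 lay within 1 of no difference. Over all cells no class median reached a size of 1: the median difference was -0.07 over 18 enzymes and lumenal proteins, -0.31 over 6 membrane proteins and -0.27 over 17 pump subunits, beside -0.02 over all genes. Nearest to the threshold from within were Atp6v0d1 at 0.96 and Lipa at -0.90.

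**Figure D1:**
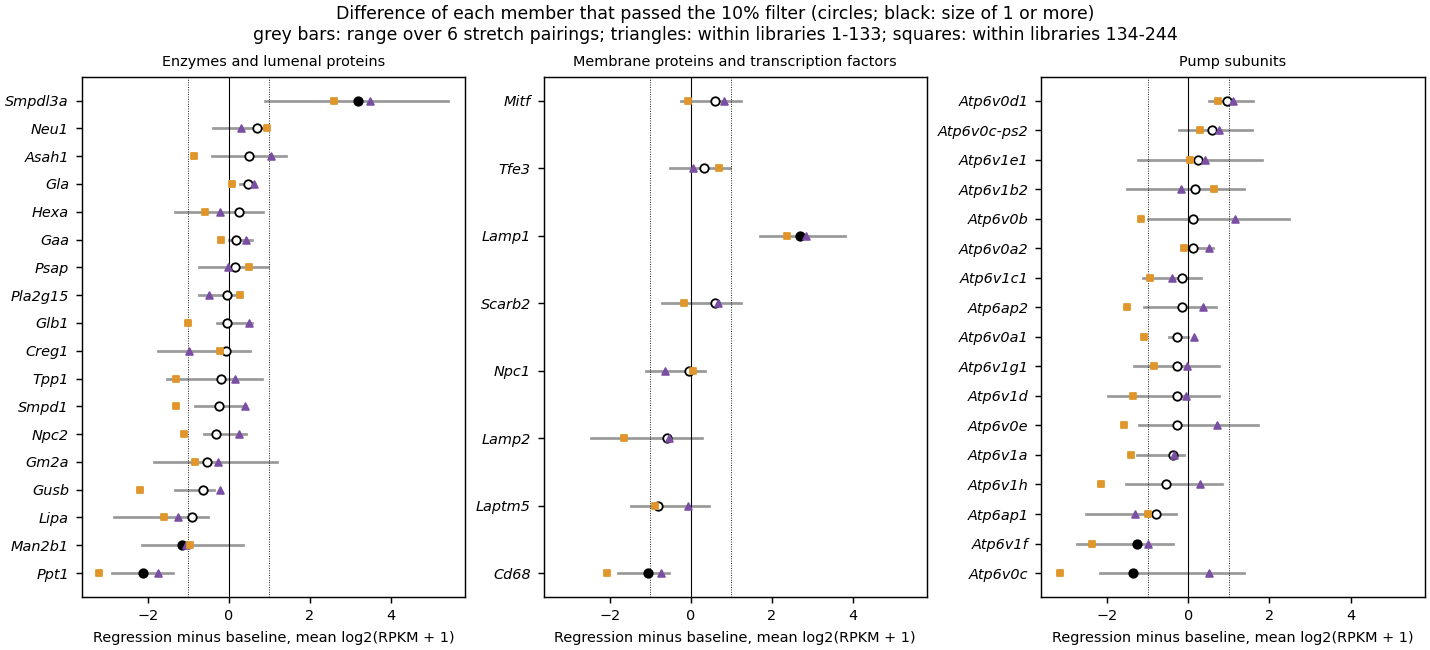
Difference between regression and baseline cells in mean log2(RPKM + 1) for the 43 genes that passed the filter, by class. Circles are all cells, filled where the size was 1 or more, grey bars span the 6 differences between single stretches of the 2 conditions, triangles are libraries 1 to 133 and squares libraries 134 to 244. Smpdl3a and Lamp1 lie to the right on every measure, and many squares, among them those of Atp6v0c at -3.16 and Ppt1 at -3.20, lie left of their triangles.

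The 2 sides of the library division gave different pictures of the classes. In libraries 1 to 133 the medians were 0.06 for the enzymes, -0.31 for the membrane proteins and 0.29 for the pump, beside -0.02 over all genes. In libraries 134 to 244 they were -0.85, -0.53 and -1.10, beside -0.17 over all genes. Counts past 1 were 5 higher and 5 lower on the first side, against 5.99% and 5.06% of all genes, and 2 higher and 18 lower on the second, against 3.03% and 14.2%. The pump median thus had opposite signs on the 2 sides. On the first side the regression stretches were themselves opposed. Against baseline 21 to 92 the pump median was 0.76 for regression 1 to 20 and -1.001 for regression 93 to 111. On the second side all regression cells were of regression 168 to 244, so side and stretch cannot be told apart there. The baseline cells themselves differed: 22 of the 43 genes were higher by 1 or more in baseline cells 134 to 167 than in baseline cells 21 to 133, and none was lower by as much, against 14.5% and 0.772% of all genes. Gene number moved the same way, with a median of 2370 genes listed in baseline cells 21 to 133, 1856 in the 22 of them numbered 112 to 133, and 3024.5 in baseline cells 134 to 167; its part in the differences was not tested. The sign was shared by both sides in 24 of the 43 genes, 8 higher and 16 lower, and 19 had opposite signs. On both sides Smpdl3a and Lamp1 were higher by 1 or more, and Ppt1, Lipa and Atp6v1f were lower by 1 or more.

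Among the enzymes and lumenal proteins all 18 passed the filter, 7 with a positive and 11 with a negative difference, and 10 of them lay within 0.5 of no difference. Smpdl3a (chr10:57794335-57811830, mm10) held the largest difference of all 54 genes. In baseline cells its log2(RPKM + 1) ran from 0 to 10.23 with a median of 0, and in regression cells from 0 to 12.14 with a median of 6.39. The groups overlapped over most of their range, and 4 cells from regression exceeded all of those from baseline. The gene was found at an RPKM of 1 or more in 55 of 125 cells at baseline (44.0%, interval 35.1 to 53.2) and in 82 of 113 in regression (72.6%, 63.4 to 80.5). Among the cells that listed it the median was 4.54 at baseline and 7.84 in regression, so both the share of cells and the level in those cells were higher. The mean was 2.18 ± 3.01 (SD, 125 cells) at baseline and 5.38 ± 3.80 (SD, 113 cells) in regression, a difference of 3.20.

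Regression cells were not alike in Smpdl3a. Its mean level was 7.58 in regression 1 to 20, 3.06 in regression 93 to 111 and 5.35 in regression 168 to 244, against 2.18 in baseline 21 to 92, 1.27 in baseline 112 to 133 and 2.77 in baseline 134 to 167. Every regression stretch lay above every baseline stretch, though regression 93 to 111 did so by little. Regression 93 to 111 also listed the fewest genes of the 3 regression stretches, a median of 1892.5. The difference was 3.48 within libraries 1 to 133 and 2.58 within libraries 134 to 244. Without the cells that listed 3 or more monocyte markers it was 2.71.

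Ppt1 (chr4:122836242-122859175), the thioesterase that removes palmitate from proteins, was lower in regression. Its log2(RPKM + 1) reached 11.56 at baseline with a median of 6.09, and 9.29 in regression with a median of 3.18; the lowest cells of both groups were at 0 and the groups overlapped widely. At baseline 107 of 125 cells listed Ppt1 (85.6%, 78.2 to 91.2), and in regression 73 of 113 did (64.6%). The mean was 5.66 ± 3.14 (SD, 125 cells) and 3.53 ± 3.23 (SD, 113 cells), a difference of -2.13. Mean levels were 2.92, 4.18 and 3.54 in the 3 regression stretches and 5.55, 4.35 and 6.74 in baseline 21 to 92, 112 to 133 and 134 to 167. Each regression stretch was thus below each baseline stretch, though regression 93 to 111 was only just below baseline 112 to 133. The lower share of listing cells did not hold in regression 93 to 111. There 88.9% of cells listed Ppt1, against 82.6% in baseline 21 to 92 and 89.3% in baseline 112 to 167. It was 50.0% in regression 1 to 20 and 62.7% in regression 168 to 244. The difference was -1.74 in libraries 1 to 133 and -3.20 in libraries 134 to 244. Its exons share 129 of 3674 bases with Cap1 on the opposite strand, and no source says whether reads were counted by strand.

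Man2b1, the lysosomal alpha-mannosidase (chr8:85083270-85098282), was lower by a smaller amount. Its level had a median of 4.52 and a highest value of 9.91 at baseline, and 2.50 and 9.10 in regression, with cells at 0 in both groups. The mean was 4.20 ± 2.87 (SD, 125 cells) and 3.04 ± 2.77 (SD, 113 cells), a difference of -1.16, and the gene was listed in 76.8% and 66.4% of cells. Stretch means ran 3.85, 2.62 and 2.93 in regression and 4.76, 2.91 and 3.89 at baseline in number order. The order of the conditions was thus not kept: regression 1 to 20 lay above baseline 112 to 133, and so, by very little, did regression 168 to 244. Without baseline 21 to 92 the difference was -0.46, whereas it was -1.05 and -0.96 on the 2 sides of the division.

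The remaining enzymes differed by less than 1. Gm2a, the activator that presents gangliosides to hexosaminidase, had the highest level of the class, 10.30 ± 1.94 (SD, 125 cells) at baseline and 9.77 ± 2.71 (SD, 113 cells) in regression, and alone made up 53.6% and 49.3% of the summed mean RPKM of the class. Npc2, which hands cholesterol from the lumen to the membrane, had means of 6.58 and 6.26. Psap, the precursor of the saposins, was listed in 98.4% and 96.5% of cells with means of 5.99 and 6.13. Asah1, the acid ceramidase, had means of 5.99 and 6.49, and Hexa, a subunit of hexosaminidase, 5.25 and 5.49. None of these 5 abundant genes differed by more than 0.53 over all cells, but the sides did not always share this. Asah1 differed by 1.05 in libraries 1 to 133 and -0.86 in libraries 134 to 244, and Npc2 by 0.24 and -1.10. Gm2a differed by -0.28 and -0.84, Psap by -0.02 and 0.49, and Hexa by -0.21 and -0.59. The stretches did not all follow these signs. Gm2a means were 8.80, 11.21 and 9.68 in regression, and 10.02 and 10.65 in baseline 21 to 92 and 112 to 167. Regression 93 to 111 thus lay above both baseline stretches in Gm2a. Hexa means were 4.09, 5.08 and 5.96 in regression and 5.12 and 5.42 in those baseline stretches.

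Lipa, the acid lipase that frees cholesterol from lipoprotein esters, had a difference just under the threshold. The gene was detected in 73.6% of cells at baseline and 63.7% in regression, with means of 4.49 ± 3.26 (SD, 125 cells) and 3.59 ± 3.36 (SD, 113 cells) and a difference of -0.90. In libraries 1 to 133 the difference was -1.26 and in libraries 134 to 244 it was -1.60, both past 1. Levels of Lipa were higher in libraries 134 to 244, which held 75 of the 113 regression but 34 of the 125 baseline cells. Its mean in regression 93 to 111 was 1.66 and in the other regression stretches 3.89 and 3.97. Baseline 112 to 133 had a mean of 2.83, below both of these, so the stretches of the 2 conditions overlapped.

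Gusb, the beta-glucuronidase, showed how much a difference could rest on 1 side. It was -0.65 over all cells, -0.21 in libraries 1 to 133 and -2.19 in libraries 134 to 244. Its baseline mean was 1.84 in libraries 112 to 133 and 5.86 in libraries 134 to 167, while the regression means lay between 2.96 and 3.82. Neu1, a sialidase, was higher in regression by 0.70 and on both sides by 0.30 and 0.93, but not in every stretch. Its means were 2.32, 1.09 and 2.33 in regression, and 1.48 and 1.36 in baseline 21 to 92 and 112 to 167. Glb1, Smpd1, Gaa, Gla and Pla2g15 were listed in 10.6% to 24.8% of cells of either condition and had medians of 0. Tpp1, a tripeptidyl peptidase, and Creg1, a small glycoprotein, differed by -0.20 and -0.08 over all cells. On the 2 sides Tpp1 differed by 0.14 and -1.30, and Creg1 by -0.98 and -0.22.

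Among the membrane proteins Lamp1 (chr8:13159161-13175338) was higher in regression. Its log2(RPKM + 1) had a median of 5.62 and a highest value of 11.44 at baseline, and a median of 8.28 and a highest value of 10.32 in regression, with cells at 0 in both. The ranges overlapped fully, and the highest cell was a baseline cell. Lamp1 was detected in 96 of 125 cells at baseline (76.8%, 68.4 to 83.9) and in 109 of 113 in regression (96.5%, 91.2 to 99.0). Among listing cells the medians were 6.75 and 8.36. The mean was 4.77 ± 3.31 (SD, 125 cells) and 7.47 ± 2.44 (SD, 113 cells), a difference of 2.70.

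Lamp1 means were 8.04, 6.94 and 7.45 in the regression stretches and 5.22, 2.92 and 5.07 in baseline 21 to 92, 112 to 133 and 134 to 167. The lowest regression stretch thus lay above the highest baseline stretch by more than 1. The difference was 2.85 in libraries 1 to 133, 2.37 in libraries 134 to 244 and 2.44 without cells that listed 3 or more monocyte markers. As a log2 ratio of mean RPKM, which weights the highest cells, it was 1.29. Lamp1 exons share 249 of 2675 bases (9.31%) with Grtp1 on the opposite strand.

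Of the 6 membrane proteins that passed the filter, Lamp1 and Scarb2 had positive and the other 4 negative differences. Cd68, the macrophage form of a lysosomal membrane mucin, had a median of 9.31 and a highest value of 12.04 at baseline and 8.72 and 11.41 in regression. Its mean was 8.47 ± 2.74 (SD, 125 cells) and 7.43 ± 3.36 (SD, 113 cells), a difference of -1.05, and it was listed in 95.2% and 87.6% of cells. Stretch means of Cd68 lay close together in regression, at 7.39, 7.26 and 7.48, and at baseline were 8.00, 8.27 and 9.55. All regression stretches were therefore below all baseline stretches, and the gap was widest at baseline 134 to 167. The difference of Cd68 was -0.74 in libraries 1 to 133, -2.08 in libraries 134 to 244, and -0.58 without the stretch baseline 112 to 167.

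Lamp2, the partner of Lamp1 in the lysosomal membrane, had means of 7.40 ± 2.83 (SD, 125 cells) and 6.81 ± 2.67 (SD, 113 cells). Its difference of -0.59 was -0.54 and -1.65 on the 2 sides. Stretch means of Lamp2 were 7.52, 5.12 and 7.03 in regression, and 7.24 and 7.59 in baseline 21 to 92 and 112 to 167. Regression 1 to 20 thus lay above baseline 21 to 92, and regression 93 to 111 was the lowest stretch. Laptm5, a membrane protein of lysosomes in blood cells, had means of 8.86 and 8.06 and differed by -0.80, with -0.07 in libraries 1 to 133 and -0.89 in libraries 134 to 244. Scarb2, the receptor that carries glucocerebrosidase to the lysosome, was listed in 28.0% and 42.5% of cells. It differed by 0.60, with 0.67 and -0.17 on the 2 sides. Stretch means of Scarb2 were 2.47, 0.99 and 2.19 in regression, and 1.23 and 1.71 in baseline 21 to 92 and 112 to 167. Npc1, which exports cholesterol through the membrane, had means of 1.61 and 1.57. Mcoln1, a calcium channel of the lysosome, was listed in 4.80% and 7.08% of cells and did not pass the filter.

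**Figure D2:**
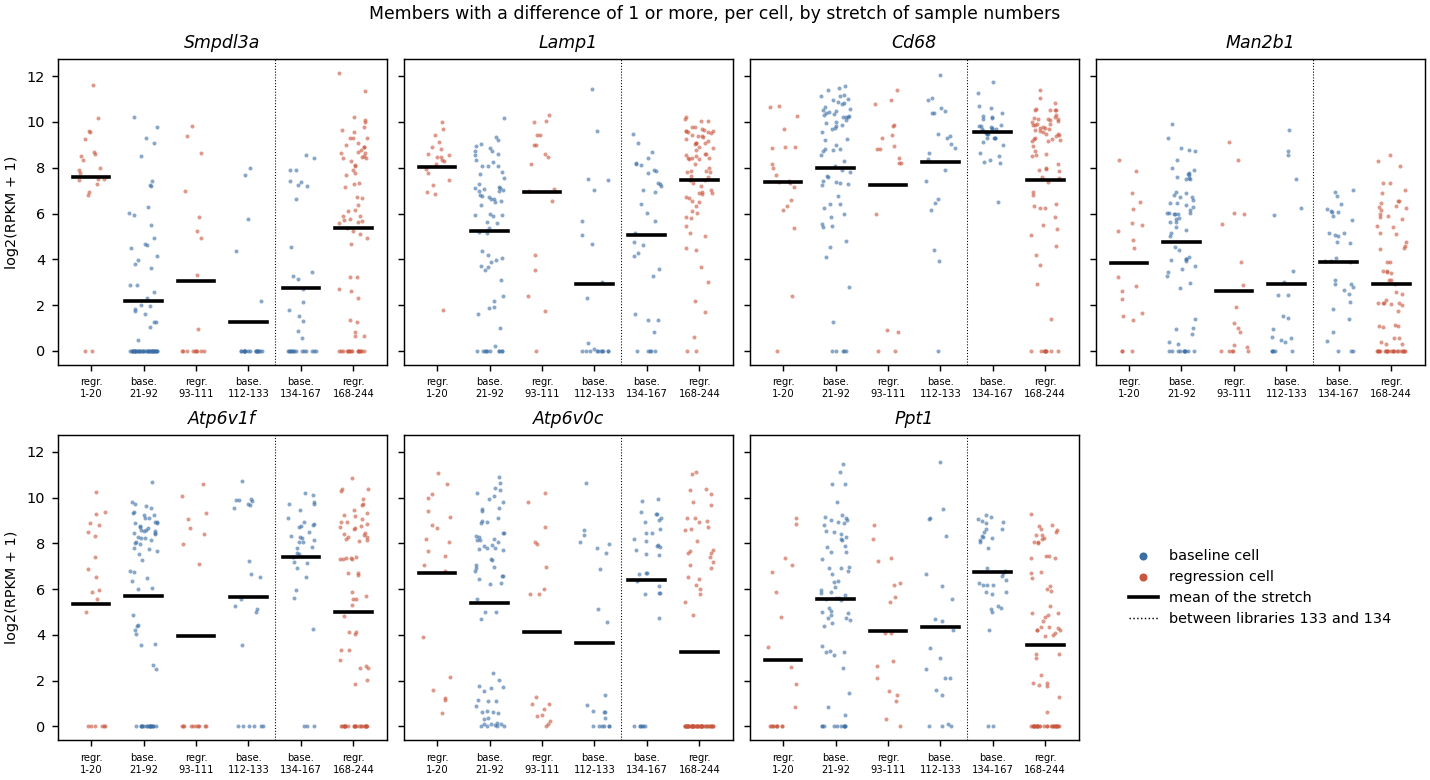
log2(RPKM + 1) of the 7 genes with a difference of 1 or more in each of 238 cells, by stretch of sample numbers with the last baseline stretch divided at library 133. Points are cells, blue for baseline and red for regression, bars are means, and the dotted line marks the division of the libraries. Lamp1 cells of the 3 regression stretches centre on 6.94 to 8.04 and those of baseline on 2.92 to 5.22, whereas Atp6v0c is near 0 in many cells of regression 168 to 244.

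Pairs of genes were also ordered within the same cell. The pairs were chosen after their differences were seen, each setting a gene that was higher in regression against one that was lower. The choice thus set the direction over all cells, and the shares are descriptions only. Lamp1 exceeded Lamp2 in 24 of 120 baseline cells that listed either gene (20.0%, 13.3 to 28.3) and in 63 of 112 regression cells (56.3%, 46.6 to 65.6). The share was 25.6% and 52.6% in libraries 1 to 133 and 5.88% and 58.1% in libraries 134 to 244. Lamp1 exceeded Cd68 in 15.2% of baseline and 43.4% of regression cells. Smpdl3a exceeded Ppt1 in 18 of 114 baseline cells (15.8%) and 61 of 101 regression cells (60.4%), with 16.0% and 60.0% on the first side and 15.2% and 60.6% on the second. Regression 93 to 111 was the lowest regression stretch for that last pair, at 31.3%, an interval of 11.0 to 58.7 that overlaps those of the baseline stretches. The other pairs ordered in this way set pump genes against Atp6v0c, and their shares lay closer. Atp6v0b exceeded Atp6v0c in 68.1% of baseline and 77.1% of regression cells. The pseudogene row Atp6v0c-ps2, described below, exceeded it in 81.1% and 83.0%. For Atp6v0c-ps2 the shares were 83.0% and 78.4% in libraries 1 to 133 and 76.5% and 85.3% in libraries 134 to 244.

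**Figure D3:**
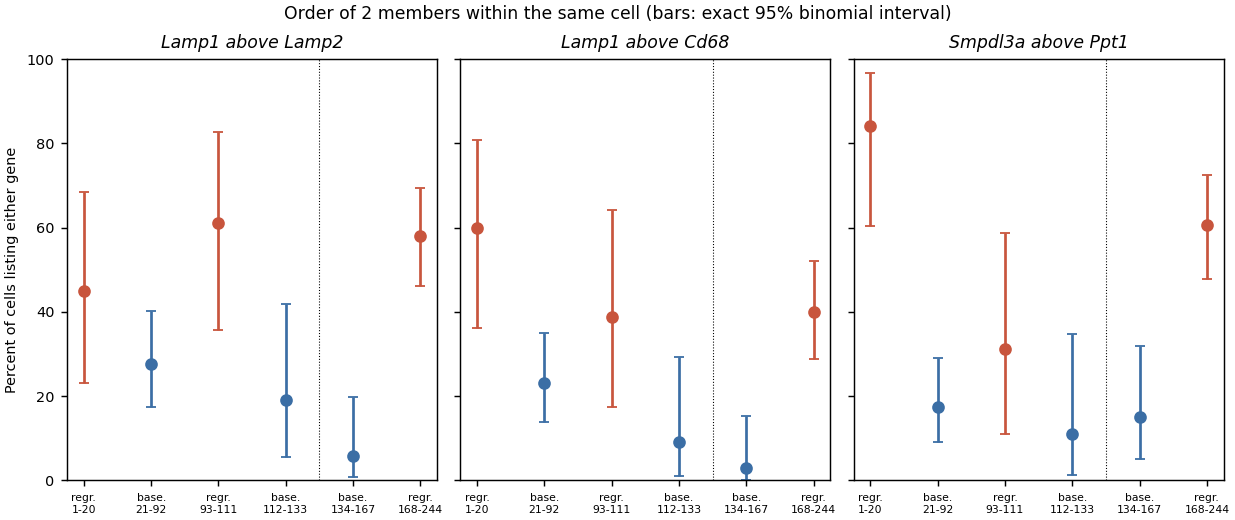
Percent of cells in which the first gene of a pair was above the second, among cells listing either, by stretch of sample numbers. Points are shares, blue for baseline and red for regression, bars are exact 95% binomial intervals, and the dotted line marks the division of the libraries. For Lamp1 above Lamp2 the baseline stretches lie at 5.88% to 27.7% and the regression stretches at 45.0% to 61.1%.

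The proton pump was covered unevenly by isoform. Of 26 subunit and accessory genes 17 passed the filter, 6 with a positive and 11 with a negative difference, and none was higher by 1 or more. In the V1 sector the catalytic subunit Atp6v1a had means of 3.92 and 3.53. The B subunit was present as Atp6v1b2, detected in 45.6% and 49.6% of cells, whereas Atp6v1b1, an isoform known from kidney and inner ear, was not listed in any cell. Of subunit C the gene Atp6v1c1 was listed in 40.0% and 39.8% of cells and Atp6v1c2 in none. Of subunit E, Atp6v1e1 was listed in 71.2% and 65.5% and Atp6v1e2 in none. Of subunit G, Atp6v1g1 was listed in 93.6% and 87.6%, Atp6v1g2 in 1.60% of baseline cells and Atp6v1g3 in 0.800%, both in no regression cell. A count of 0, taken to allow up to 3 cells of the total, allows a share of up to 2.40% of baseline and 2.65% of regression cells.

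In the V0 sector the a subunit was present as Atp6v0a1, listed in 33.6% and 26.5% of cells, and Atp6v0a2, in 14.4% and 15.9%, and Atp6v0a4 was not listed in any cell. Subunit d was present mainly as Atp6v0d1, with means of 2.45 ± 2.88 (SD, 125 cells) and 3.40 ± 3.27 (SD, 113 cells). Atp6v0d1 had the highest difference of the pump, 0.96, which was 1.11 and 0.73 on the 2 sides. Its other isoform Atp6v0d2, known from osteoclasts and macrophages, was found in 11 of 125 cells at baseline (8.80%, 4.48 to 15.2) and in 3 of 113 in regression (2.65%, 0.551 to 7.56). Levels were highest for Atp6v0e, with means of 7.64 and 7.35, and Atp6v0b, a proteolipid of the rotor ring, with 7.14 and 7.24, beside the pseudogene row described next to Atp6v0c. Both went in opposite directions on the 2 sides, Atp6v0e by 0.71 and -1.58 and Atp6v0b by 1.14 and -1.18. Atp6v0e2 was not listed in any cell.

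Atp6v1f (chr6:29467718-29470512), subunit F of the V1 rotor, had a median of 7.74 and a highest value of 10.74 at baseline, and 5.87 and 10.85 in regression. Its mean was 6.15 ± 3.58 (SD, 125 cells) and 4.90 ± 3.97 (SD, 113 cells), a difference of -1.26, and it was listed in 79.2% and 66.4% of cells. Among listing cells the medians were 8.23 and 8.18, so the median level of those cells was nearly equal while fewer regression cells listed the gene. Stretch means were 5.33, 3.96 and 5.01 in regression and 5.70, 5.64 and 7.40 at baseline, which keeps the conditions apart but by little outside baseline 134 to 167. The difference was -1.01 in libraries 1 to 133, -2.39 in libraries 134 to 244 and -0.29 as a ratio of mean RPKM.

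Atp6v0c (chr17:24163866-24169702), the proteolipid that forms most of the rotor ring, looked lower in regression over all cells, with means of 5.37 ± 3.73 (SD, 125 cells) and 3.99 ± 4.16 (SD, 113 cells) and a difference of -1.37. Its median was 6.71 at baseline, with a highest value of 10.88, and 1.30 in regression, with a highest value of 11.11. The stretches did not share this: regression 1 to 20 had the highest mean, 6.69, followed by baseline 134 to 167 at 6.40, and regression 168 to 244 the lowest, 3.24. The difference was 0.50 in libraries 1 to 133 and -3.16 in libraries 134 to 244, and 0.11 without regression 168 to 244. In libraries 134 to 244 the gene had values above 0 but under 1e-10 in 45 of 75 regression and 6 of 34 baseline cells, values far below 1 read, and in libraries 1 to 133 in no cell. Atp6v0c-ps2, a processed pseudogene in GENCODE vM21, is a near copy that can take reads of Atp6v0c, and its own means were 7.19 and 7.77. Summed, the pair had means of 8.28 ± 2.61 (SD, 125 cells) and 8.82 ± 1.97 (SD, 113 cells), a difference of 0.54 in the other direction. The summed means were 8.11 and 8.93 in libraries 1 to 133, and 8.74 and 8.77 in libraries 134 to 244. Neither gene's own value is certain.

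The 2 accessory proteins were also present in most cells. Atp6ap1, which helps to assemble the V0 sector, had means of 4.25 and 3.46, with differences of -1.32 and -0.99 on the 2 sides. Atp6ap2, the renin receptor, had means of 4.75 and 4.59, with differences of 0.35 and -1.52. Atp6v1h, the subunit that holds the detached V1 sector inactive, had means of 2.20 and 1.64 and differences of 0.29 and -2.16. Atp6ap1l was not listed in any cell.

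**Figure D4:**
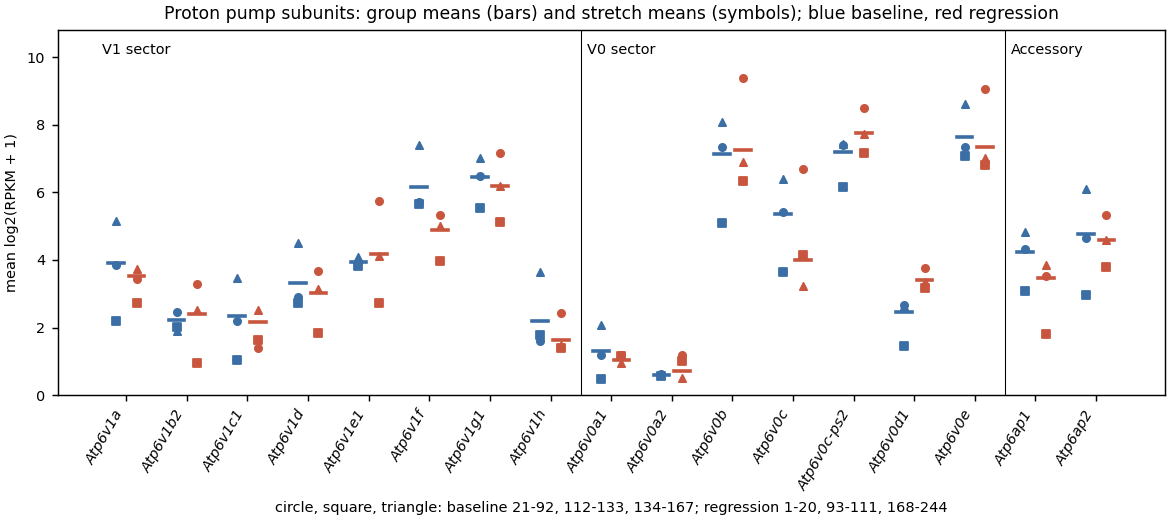
Mean log2(RPKM + 1) of the 17 pump genes that passed the filter, by sector. Bars are condition means, blue for baseline and red for regression, and circles, squares and triangles are baseline 21 to 92, 112 to 133 and 134 to 167 or regression 1 to 20, 93 to 111 and 168 to 244. For most subunits the symbols of 1 condition spread further than the bars of the 2 conditions lie apart. Atp6v0b is an example, with bars at 7.14 and 7.24 and regression stretches from 6.33 to 9.37.

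Some stretches of 1 condition differed in more of these genes than the conditions did. Between regression 1 to 20 and regression 93 to 111, 21 of the 43 genes were higher by 1 or more and 2 lower, against 21.0% and 5.82% of all genes. Regression 93 to 111 was lower than regression 168 to 244 by 1 or more in 14 genes and higher in 2, against 11.5% and 3.32%. Regression 1 to 20 was higher than regression 168 to 244 by 1 or more in 6 genes, among them Atp6v0c, Atp6v0b and Smpdl3a, and lower in 3, against 10.2% and 5.16%. Baseline 112 to 167 as a whole was higher than baseline 21 to 92 in 3 genes, Atp6v1h, Cd68 and Atp6v1f, and lower in 1, Man2b1, against 2.40% and 2.26%. Of the 3 class medians that of the pump moved most. From baseline 21 to 92 it differed by 0.76 for regression 1 to 20 and -1.001 for regression 93 to 111. For regression 168 to 244 it differed by -0.11. The enzymes gave 0.04, -0.25 and 0.04 and the membrane proteins 0.09, -0.52 and 0.07. Over all genes those values were 0.03, -0.28 and 0.01. Against baseline 112 to 167, regression 93 to 111 gave -1.17 for the pump and -0.91 for the membrane proteins. It gave -0.31 for the enzymes and -0.26 over all genes. Class medians hide single genes. Regression 1 to 20 minus regression 93 to 111 was 4.51 for Smpdl3a, 2.40 for Lamp2 and -2.42 for Gm2a. The number of genes listed ran in the same order as the pump medians. Its median was 2669 in the 20 cells of regression 1 to 20, 1892.5 in the 18 cells of regression 93 to 111 and 2399 in the 75 cells of regression 168 to 244. Its part in these differences was not tested.

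As a share of a cell's summed RPKM the 54 genes took a median of 1.45% at baseline and 1.32% in regression. These medians were 1.33% and 1.32% in libraries 1 to 133, and 1.64% and 1.31% in libraries 134 to 244, so the gap lay on the second side. The enzymes took 0.550% and 0.502%, the membrane proteins 0.316% and 0.248% and the pump 0.485% and 0.460%. In libraries 1 to 133 the enzymes took 0.550% and 0.561%, the membrane proteins 0.288% and 0.266% and the pump 0.464% and 0.456%. In libraries 134 to 244 these medians were 0.572% and 0.490%, 0.331% and 0.237%, and 0.532% and 0.465%. In the same cells ribosomal protein genes took 8.98% and 13.0%. A median cell listed 27 of the 54 genes at baseline, from 11 to 38, and 26 in regression, from 12 to 38.

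**Figure D5:**
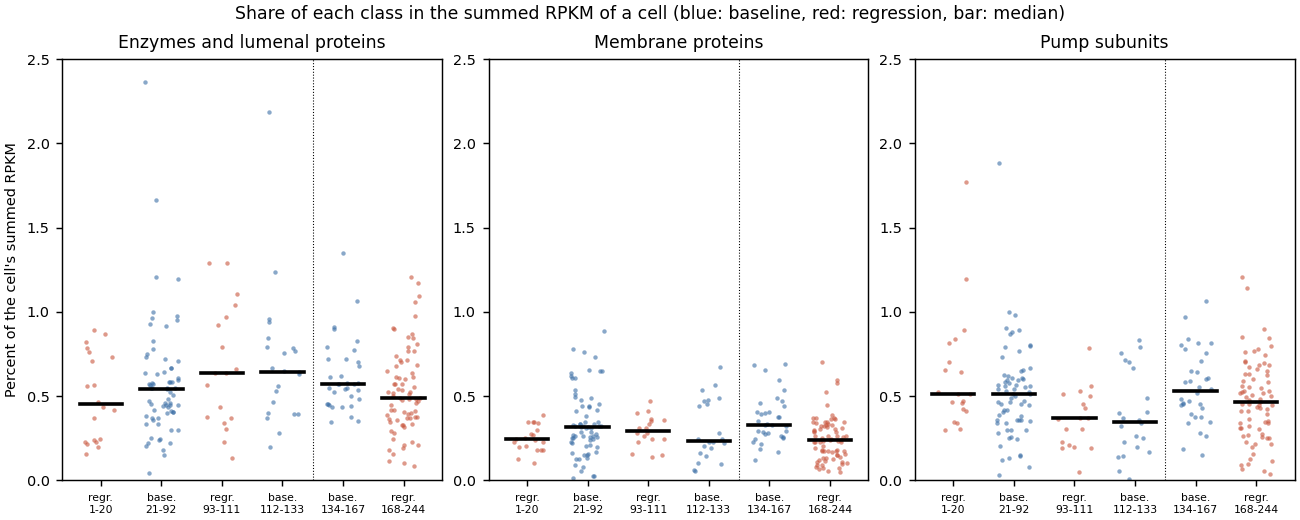
Share of each class in the summed RPKM of a cell, by stretch of sample numbers with the last baseline stretch divided at library 133. Points are cells, blue for baseline and red for regression, bars are medians, and the dotted line marks the division of the libraries. The conditions overlap in all 3 classes, with medians of 0.550% and 0.502% for the enzymes, 0.316% and 0.248% for the membrane proteins and 0.485% and 0.460% for the pump over all cells of each condition.

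The transcription factors were listed in few cells. Tfeb was found in 15 of 125 cells at baseline (12.0%, 6.87 to 19.0) and in 9 of 113 in regression (7.96%, 3.71 to 14.6), with means of 0.56 ± 1.57 (SD, 125 cells) and 0.35 ± 1.23 (SD, 113 cells), and did not pass the filter. Its stretch means were 0.50, 0.00 and 0.39 in regression and 0.57, 0.21 and 0.78 at baseline. Tfe3 was listed in 24.0% and 33.6% of cells with means of 1.20 ± 2.35 (SD, 125 cells) and 1.52 ± 2.56 (SD, 113 cells). Its stretch means were 0.96, 1.83 and 1.59 in regression and 1.46, 0.86 and 0.88 at baseline, which overlap. Mitf was listed in 18.4% and 30.1% with means of 0.87 ± 1.98 (SD, 125 cells) and 1.47 ± 2.49 (SD, 113 cells). Its stretch means were 1.87, 0.94 and 1.48 in regression and 0.62, 0.62 and 1.54 at baseline, and its difference of 0.60 was 0.81 and -0.06 on the 2 sides. The medians of all 3 were 0 in both conditions, so differences between conditions were at the limit of detection.

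The core E-box was searched in RefSeq promoters (GRCm38.p6, 250 bases before to 50 after the start), which held 43 of the 54 genes. Of these 43, 9 (20.9%) held CACGTG, against 8.09% of 27025 genes and 7.15% of their 32851 promoters, and 5 (11.6%) held TCACGTGA, against 1.12% of genes and 0.974% of promoters. Both motifs are their own reverse complement, so 1 search covers both strands, and the second contains the first. The 9 were Lamp1, Mcoln1, Atp6v0b, Atp6v0d1, Atp6v0e, Atp6v1a, Glb1, Gaa and Gla. The stretches below are those of Lamp1, with 4 cores within 61 bases of the start, and of the 5 genes with the longer motif, shown because they place the same core in genes of all 3 classes. CACGTG is in capitals.
Lamp1: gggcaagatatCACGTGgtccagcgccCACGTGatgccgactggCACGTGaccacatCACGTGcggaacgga
Mcoln1: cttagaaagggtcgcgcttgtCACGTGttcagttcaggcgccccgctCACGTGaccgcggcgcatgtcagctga
Gla: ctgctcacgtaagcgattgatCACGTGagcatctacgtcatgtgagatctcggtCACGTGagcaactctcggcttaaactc
Atp6v0d1: agagccaggccctactgcggtCACGTGa
Atp6v0e: gcggggctttagcgcgccgatCACGTGa
Atp6v1a: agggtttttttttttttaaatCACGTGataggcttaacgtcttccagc

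They lie at chr8:13159089-13159160 (plus strand) for Lamp1, chr8:3500427-3500500 (plus) for Mcoln1, chrX:134601173-134601253 (minus) for Gla, chr8:105566061-105566088 (minus) for Atp6v0d1, chr17:26676378-26676405 (plus) for Atp6v0e and chr16:44139364-44139411 (minus) for Atp6v1a. The genes that held the core did not share a direction. Lamp1 was higher in regression by 2.70, Atp6v0d1 by 0.96, Gla by 0.48, Gaa by 0.17 and Atp6v0b by 0.11. Mcoln1, which did not pass the filter, was higher by 0.09. Atp6v1a, Atp6v0e and Glb1 differed by -0.39, -0.29 and -0.06. A match is a description of these letters and not of binding. Promoters of Smpdl3a, Asah1, Npc1, Atp6v0a2, Atp6v0c-ps2, Atp6v0d2, Atp6v1b2, Atp6v1c1, Atp6v1g1, Atp6v1h and Atp6ap1l were not analysed here.

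Other lysosomal genes also differed in both directions. Of 30 further hydrolases and lumenal proteins 29 passed the filter, 2 of them higher by 1 or more and 3 lower, against 3.35% and 4.38% of all genes, with a median of 0.10. Ctsl, a cysteine cathepsin, had means of 4.19 ± 3.90 (SD, 125 cells) and 7.67 ± 3.31 (SD, 113 cells), a difference of 3.48. Ctsd, the aspartic cathepsin, differed by 2.10. Both were higher on both sides of the division, Ctsl by 3.60 and 1.48 and Ctsd by 2.16 and 0.87. Among those lower were Ctsa, which protects the sialidase Neu1, at -1.13, with -1.85 and -0.65 on the 2 sides, and Fuca1, the fucosidase, at -1.09, with -1.11 and -1.41.

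Of 15 further membrane proteins 13 passed, none higher by 1 or more and 1 lower, against the same shares of all genes, with a median of 0.13. Cd63, a tetraspanin of late endosomes, had means of 7.60 and 5.91, and its difference of -1.69 ran from -5.94 to -0.27 over the 6 pairings of stretches. Clcn7, the lysosomal chloride transporter, differed by -0.49. Slc11a1, a metal transporter of phagosomes, differed by 0.87, and Tcirg1, the a3 isoform of the pump's a subunit, which is not among the Atp6v symbols, by 0.81 with means of 2.33 ± 2.77 (SD, 125 cells) and 3.14 ± 2.89 (SD, 113 cells). Tcirg1 was the most abundant of the a isoforms by mean log2(RPKM + 1), above Atp6v0a1 at 1.30 and 1.03, although its difference kept its sign in only 3 of 6 pairings.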

How the data were processed

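The authors deposited 1 table of RPKM values for 244 libraries. Cells were captured on a Fluidigm chip, with cDNA from the SMARTer kit and Nextera XT libraries, per the labels' protocols, whose text speaks of islet cells where all other labels say macrophages. The mm10 build, CASAVA 1.8.2 and FastQC are named per the submitters' processing notes; no source used here names the aligner, annotation or RPKM program. The SMARTer kit adds no molecular identifiers, so values include amplification noise.

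Columns were matched to samples by the number in the title. Libraries correlating above 0.9 were averaged as 1 cell. Depth could be read from the steps of low values in 66 of 128 baseline libraries (0.463 to 8.02 M reads) and 55 of 116 regression libraries (0.287 to 9.84 M reads). Values were compared as log2(RPKM + 1); each condition was 1 sample, so no test was made. Doublets were not called. Cells listing 3 or more markers of a type other than macrophage or monocyte numbered 6 per condition. Members and lists were chosen with earlier results of these data known. Genes named were those with a difference of 1 or more, the 3 transcription factors, pump isoforms, examples, and the 2 highest and 2 lowest of each other list, except 1 gene that the rule names and that is not reported here. Positions came from GENCODE vM21. Scripts used Python 3.11.15, pandas 2.3.3 and scipy 1.17.1. Only the calculation of differences between conditions was tested on simulated data.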

Additional observations from a re-analysis of the deposited data

How the results depend on the processing

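The 3 class medians, the 2 counts of genes past 1 and the differences of 10 named genes were recomputed under 21 other settings, 16 of them planned and 5 chosen after seeing the data. The median difference of the enzymes was 0.082 as a log2 ratio of mean RPKM, 0.12 in cells with at least 2000 genes (97 baseline and 81 regression cells), -0.85 in libraries 134 to 244 and -0.41 as the mean of both sides. The pump median was -1.10 in libraries 134 to 244 and 0.29 in libraries 1 to 133. Genes higher by 1 or more numbered 5 with a pseudocount of 0.1, 5 by the ratio of means and 5 in libraries 1 to 133. Genes lower by 1 or more numbered 1 with a pseudocount of 10, 1 by the ratio of means, 18 in libraries 134 to 244 and 9 as the mean of both sides. Atp6v0c reversed to 0.11 without regression 168 to 244, 0.50 in libraries 1 to 133 and 0.54 when summed with its pseudogene. The cause was not tested in any of these. Smpdl3a (2.06 to 4.22), Lamp1 (1.29 to 3.35) and Ppt1 (-3.20 to -1.33) kept their sign and a size of 1 or more in all 21. Cd68 ran from -2.08 to -0.54 and Man2b1 from -1.72 to -0.46, and each stayed at 1 or more in size in 16 of 21; Atp6v1f ran from -2.39 to -0.29 and did so in 18. No paired analysis was possible because each sample number belongs to 1 library only. Depth could be read in only part of the libraries, and genes listed in few cells, such as Tfeb and Mcoln1, rest on few values.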

Other observations

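Genes that act around the lysosome were described by list, beside 3.35% of all genes higher and 4.38% lower by 1 or more. Of 10 sorting genes 9 passed the filter and none differed by 1 or more: Gnptg, a subunit of the enzyme that makes the mannose 6-phosphate tag, differed by -0.68, the adaptor Gga3 by -0.47 its relative Gga1 by 0.37 and Igf2r, a receptor for the tag, by 0.11. Of 13 autophagy genes 10 passed and none differed by 1 or more, with Gabarap at 0.51, Atg7 at 0.29, Becn1 at -0.21 and Gabarapl2 at -0.39. Within libraries 1 to 133 and 134 to 244 Gabarap differed by 1.33 and -0.68, and Gabarapl2 by 1.07 and -2.18. Of 16 genes that control TFEB at the lysosomal surface 12 passed, 1 higher and 2 lower by 1 or more, with Lamtor4 of the Ragulator complex higher by 1.03, Lamtor1 at 0.44, and Lamtor5 of the same complex and Fnip1, a partner of folliculin, lower, at -1.07 and -1.30. On the 2 sides Lamtor4 differed by 1.71 and 0.66, Lamtor5 by -0.67 and -1.74, and Fnip1 by -1.97 and -1.17.

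Within conditions, correlations between the genes from cell to cell were weak. Over 238 cells, with the mean of each stretch removed, the 378 pairs among the 28 genes listed in at least 50% of cells had a median correlation of 0.10. None reached 0.5, the highest was 0.34 for Cd68 and Atp6v0c, and the lowest -0.13 for Psap and Atp6v0c. Each gene's correlation with the log2 number of genes listed in a cell was positive, from 0.11 for Smpdl3a to 0.38 for Man2b1 with a median of 0.26. Weak correlations in sparse values are a description only and do not show that genes vary independently.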
